A study of Mus musculus with 4 samples.

Results

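The 9 genes of the Ms4a family examined here, called members below, were Ms4a4b, Ms4a4c, Ms4a4d, Ms4a6b, Ms4a6c, Ms4a6d, Ms4a7, Ms4a8a and Ms4a10. The members were every listed gene with a non-control probe whose RefSeq accession names it, and this gave 12 probes among the 27234 probes that could be given 1 of 20659 gene names. The genes were chosen by their log2 levels across the 4 arrays, as earlier results of the same arrays showed them, so all values below are descriptions. The arrays were 1-colour Agilent mouse expression arrays of lamina propria lymphocytes, immune cells that lie in the layer beneath the gut epithelium, from C57BL6 mice taken at day 10 of an experiment with dextran sulfate sodium (DSS), which injures the colon lining. The 4 groups were Stat4-/- given DSS and LIF (the cytokine leukemia inhibitory factor), Stat4-/- given DSS, wild type given DSS and LIF, and wild type given DSS. All 4 groups thus carried DSS injury, and no uninjured group is analysed here. Each group had 1 array and 5 mice, and whether those mice were pooled is not stated in the labels.

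Ms4a proteins span the membrane several times and are related to CD20, the B cell protein encoded by Ms4a1. The family is split by cell type: Ms4a4b and Ms4a6b are known from T cells, where the Ms4a4b protein associates with the receptor GITR and modulates proliferation, Ms4a4c from T cells and monocytes, Ms4a6c, Ms4a6d and Ms4a7 from monocytes and macrophages, Ms4a8a from intestinal epithelium and some macrophages, and Ms4a10 from intestinal epithelium. The genes arose by duplication and lie side by side. On mouse chromosome 19 of the RefSeq table (GRCm38.p6) the run from Ms4a10 to Ms4a3 held 22 protein-coding genes, of which 21 carried an Ms4a name.

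The 250 bases before the gene start are shown for the nearby pairs Ms4a4b and Ms4a4c, and Ms4a6b and Ms4a6c, because these were the member windows that share long stretches. Capitals mark every run of at least 12 bases found unchanged in both genes of the pair. The sequences are from RefSeq (GRCm38.p6), written 5′ to 3′ on the plus strand, at chr19:11443308-11443557 for Ms4a4b, chr19:11407411-11407660 for Ms4a4c, chr19:11518309-11518558 for Ms4a6b and chr19:11469118-11469367 for Ms4a6c.
Ms4a4b: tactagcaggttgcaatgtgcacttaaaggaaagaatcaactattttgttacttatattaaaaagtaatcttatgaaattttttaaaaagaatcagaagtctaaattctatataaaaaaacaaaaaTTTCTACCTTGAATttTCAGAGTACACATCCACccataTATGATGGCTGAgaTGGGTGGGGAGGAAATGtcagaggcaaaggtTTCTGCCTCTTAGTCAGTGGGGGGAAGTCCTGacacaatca
Ms4a4c: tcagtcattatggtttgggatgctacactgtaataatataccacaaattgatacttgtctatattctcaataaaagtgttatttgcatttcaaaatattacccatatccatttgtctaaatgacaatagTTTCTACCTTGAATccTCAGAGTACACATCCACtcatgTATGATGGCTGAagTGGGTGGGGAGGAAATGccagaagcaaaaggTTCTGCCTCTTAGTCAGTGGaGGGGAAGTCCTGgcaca
Ms4a6b: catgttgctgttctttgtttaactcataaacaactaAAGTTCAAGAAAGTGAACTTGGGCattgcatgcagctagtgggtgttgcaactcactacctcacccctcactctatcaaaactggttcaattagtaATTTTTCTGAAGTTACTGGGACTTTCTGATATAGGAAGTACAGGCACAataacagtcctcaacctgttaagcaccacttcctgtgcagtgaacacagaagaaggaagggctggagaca
Ms4a6c: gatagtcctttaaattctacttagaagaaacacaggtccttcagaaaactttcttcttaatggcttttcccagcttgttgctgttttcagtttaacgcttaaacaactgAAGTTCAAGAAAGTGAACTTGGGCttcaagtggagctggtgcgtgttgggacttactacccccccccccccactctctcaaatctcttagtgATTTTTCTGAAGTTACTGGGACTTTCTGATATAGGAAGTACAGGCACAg
In the Ms4a4 pair 92 bases of each window lay in shared runs, all within 124 bases of the start of Ms4a4b, and the longest run had 20 bases. In the Ms4a6 pair 72 bases did, with a longest run of 48. No other pair of member windows shared a run longer than 9 bases.

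Windows of this kind were found for 8 of the 9 members, 9 windows in all because Ms4a7 has a pair of starts. Letters of 5 motifs were searched on both strands. The STAT motif TTCNNNGAA, to which Stat4 and the STAT proteins downstream of LIF can bind, was in 0 of 9 member windows, against 7.02% of all 32851 windows, and the form with a 4-base spacer was in 1 window of Ms4a7 (5.85% of all windows). The interferon-stimulated response element and the T-box motif TCACACCT were in 0 of 9 member windows, against 2.98% and 1.12% of all windows. The ETS-family motif GGAAGT, picked after the sequences had been seen, was in 6 of 9 windows (19.7% of all windows), those of Ms4a4b, Ms4a4c, Ms4a4d, Ms4a6b, Ms4a6c and one start of Ms4a7. In Ms4a7 this match overlaps that of the longer STAT form. In Ms4a4b, Ms4a4c, Ms4a6b and Ms4a6c a match lies in the capital runs that each pair shares, so these windows are not independent.

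Levels are given as the log2 of the processed spot signal over the 75th percentile of that array, so that 0 is the brightness of that percentile. That percentile was 43.3, 45.3, 23.8 and 122.9 intensity units for labelled Stat4-/- given DSS and LIF, labelled Stat4-/- given DSS, wild type given DSS and LIF, and wild type given DSS. Between 14823 and 24339 of 39429 probes were well above background per array, as the scanner software marks them. The wild type array given DSS and LIF stood apart, with Pearson correlations of 0.800 to 0.818 with the others, which correlated at 0.951 to 0.980 among themselves, over 12674 probes that are not independent. Both arrays given DSS alone came from 1 scan and the arrays with LIF from 1 further scan each, so scan and LIF cannot be told apart, and the comparison of genotypes under DSS is the one made within a scan. The Stat4 probe had levels of −0.48, 0.31, 0.21 and −0.49 in the same order with no split by genotype. No source used here gives its place relative to the deletion, so these arrays are called labelled Stat4-/-. Of 14 T cell markers 13 or 14 were well above background on each array, Cd3e, Cd4 and Cd8a among them, but B cell markers (9 to 11 of 12), macrophage and monocyte markers (8 to 11 of 13) and intestinal epithelial markers (12 to 13 of 15) were present as well. With 1 array per group there is no replicate error and no test. The error quoted with a difference is the scanner software's own error of the 2 spots combined, which covers measurement within arrays alone, and differences of at least 2-fold (log2 difference of 1) were counted.

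Of the 9 members, 6 were well above background on all 4 arrays: Ms4a4b, Ms4a4c, Ms4a6c, Ms4a6d, Ms4a7 and Ms4a8a. Ms4a6b passed that mark on the wild type DSS array alone, Ms4a10 on both wild type arrays by 1 of its 2 probes, and Ms4a4d on none. Each of the 12 probes had 1 spot. Ms4a4c had 3 probes, Ms4a10 had 2 and the remaining 7 members had 1.

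**Figure D1:**
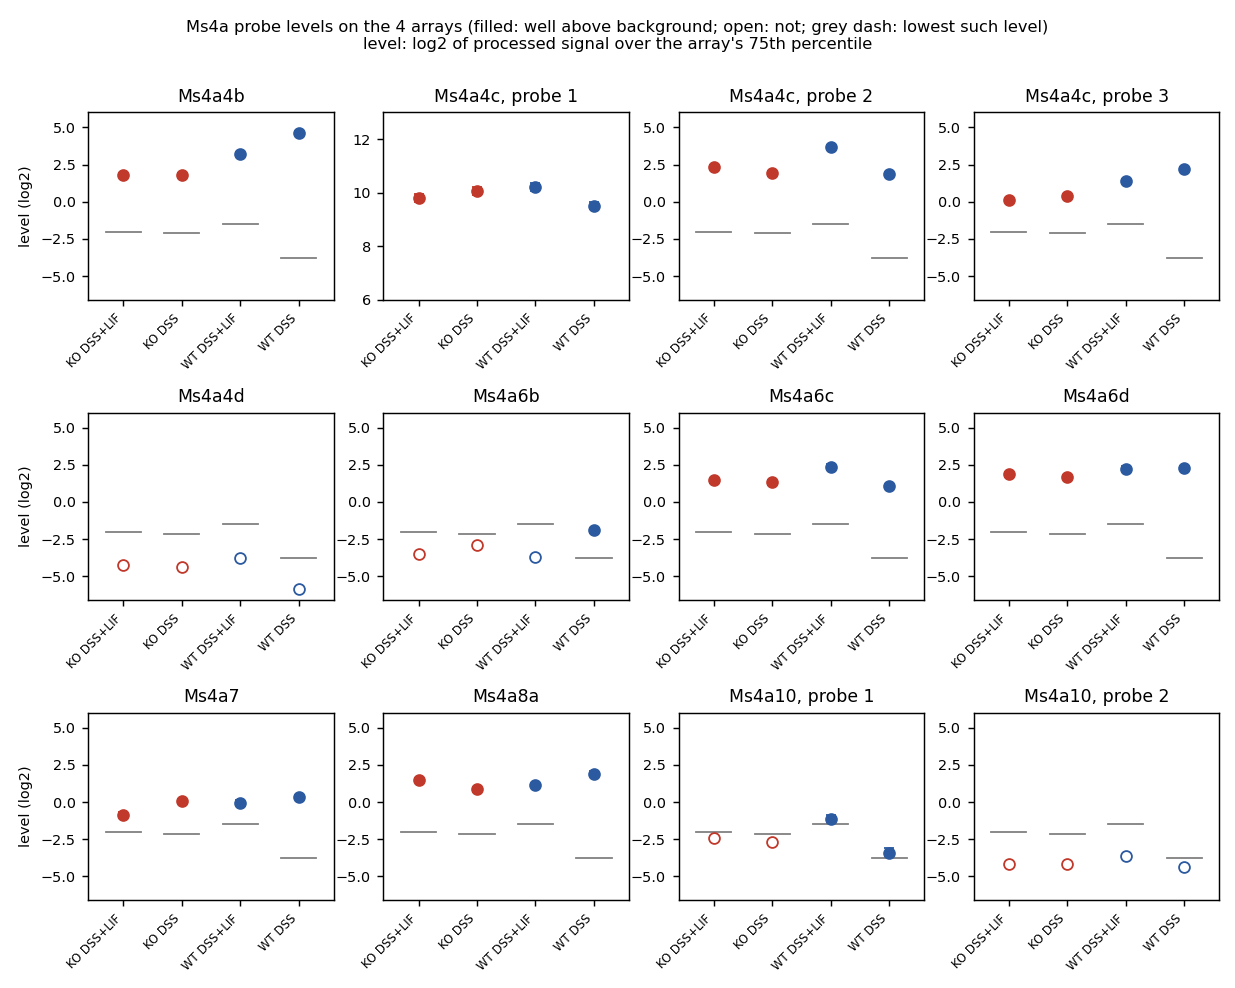
Log2 level of each of the 12 Ms4a probes (y axis) on the 4 arrays (x axis, KO: labelled Stat4-/-, red; WT: wild type, blue); filled points are well above background and open ones are not, error bars, mostly smaller than the points, are the scanner software's spot error, and grey dashes mark the lowest level well above background on each array. Ms4a4b and probe 3 of Ms4a4c are highest in wild type given DSS and lowest in the labelled Stat4-/-, whereas probe 1 of Ms4a4c, drawn on its own y range, stays between 9.52 and 10.23.

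Ms4a4b, a T cell member, had the largest difference between genotypes of any member probe under DSS. Its log2 level was 1.81 in labelled Stat4-/- given DSS and LIF, 1.79 in labelled Stat4-/- given DSS, 3.20 in wild type given DSS and LIF and 4.61 in wild type given DSS. The labelled Stat4-/- arrays were thus both below both wild type arrays, and the 2 labelled Stat4-/- values differed by 0.02, less than the spot error of 0.21, although normexp put the first below the second by −0.53 with offset 50 and by −0.95 with none. Under DSS, Ms4a4b was 7.04-fold lower in the labelled Stat4-/- (log2 difference −2.82 ± 0.20, spot error), the 8th lowest of 10500 measured genes. Under DSS and LIF it was 2.62-fold lower (−1.39 ± 0.21), where the median of all 8348 measured genes was also below 0, at −0.45. Of those genes 20.5% were lower still. Before scaling, the signals of Ms4a4b under DSS and LIF were 151.9 in the labelled Stat4-/- and 218.9 in wild type. In wild type Ms4a4b was 2.65-fold lower with LIF (−1.41 ± 0.20), against a median of 0.57 over all 8963 measured genes, so that it lay 1.98 below that median. Of these genes 9.20% were lower still. In RNA of mixed cells a loss of cells of 1 type and a lower level per cell cannot be told apart.

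The medians of T cell and of NK cell genes were below 0 as well in the genotype comparison under DSS, and the part of those cells in the Ms4a4b difference was not tested. Medians of neutrophil and stromal markers were above 0 there, at 2.74 and 1.93, and their part was not tested either. Of 13 measured T cell markers 1 was at least 2-fold lower in the labelled Stat4-/- and 0 were higher, with a median of −0.57, against 0.08 over all measured genes. Of all measured genes 6.81% were lower past that mark and 13.2% higher. Cd28, the costimulatory receptor, had −1.19, Cd3g, a subunit of the T cell receptor complex, −0.92, and Cd3e of the same complex −0.01. The 14 T cell markers summed to 25.2, 26.4, 69.5 and 39.4 times the 75th percentile in labelled Stat4-/- given DSS and LIF, labelled Stat4-/- given DSS, wild type given DSS and LIF and wild type given DSS. Among NK and cytotoxic genes, 4 of the 8 measured passed 2-fold downward and 1 upward, with a median of −0.99. Their 12 genes summed to 538.6, 582.1, 216.9 and 245.1 in the same order, a sum that 1 gene, Klra1, dominates, which was higher in the labelled Stat4-/- under DSS. Without Klra1 they summed to 12.1, 16.3, 89.1 and 44.7, lower on both labelled Stat4-/- arrays. Of the genes left, Nkg7 was the brightest on every array and led that sum, at log2 levels of 2.37, 2.72, 5.86 and 4.21. The T cell markers had, with LIF in wild type, a median of 0.38 and the NK and cytotoxic genes one of 0.16, both below the 0.57 of all genes. Tnfrsf18, which encodes GITR, had levels of 0.84, 1.28, 1.69 and 1.40 in that order of arrays and a genotype difference of −0.12 under DSS.

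Ms4a4c gave a different answer with each of its 3 probes. Probe 1 (A_55_P2135980), the brightest and the one that stands for the gene in the counts, had log2 levels of 9.80 and 10.08 in the labelled Stat4-/- given DSS and LIF and given DSS, and 10.23 and 9.52 in wild type given DSS and LIF and given DSS. Probe 2 (A_66_P106388) had 2.30, 1.90, 3.70 and 1.86 on the same arrays, with wild type given DSS and LIF above the other 3. Probe 3 (A_55_P2135986) had 0.12, 0.39, 1.39 and 2.20, the same order of groups as the levels of Ms4a4b but for the labelled Stat4-/- pair, whose values lay within 0.27 of each other.

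The labelled Stat4-/- minus wild type difference of Ms4a4c under DSS was 0.56 ± 0.20 by probe 1, 0.04 ± 0.20 by probe 2 and −1.80 ± 0.21 by probe 3, with the sign of probe 1 turned under quantile scaling (−0.07), in the authors' deposited table (−0.07) with normexp at offset 50 (−0.11) and in the mean of the 3 probes (−0.40). Probe 2 turned as well with normexp, to −0.35 with that offset and −0.09 without one. The 3 probes spanned 2.36, a range that 5 of 135 genes with at least 3 probes on all 4 arrays reached (3.70%, median range 0.79). Under DSS and LIF all 3 probes were lower in the labelled Stat4-/-, by −0.43, −1.39 and −1.27 in the order of the probes, of which the first was −1.64 with normexp and no offset and the third −0.48 with offset 50. With LIF in wild type they gave 0.70, 1.84 and −0.81, or −0.53, 0.63 and −1.16 with normexp at offset 50, and the 2.65 they spanned was reached by 28.1% of the 135 genes. Before scaling, the wild type signals of probes 1 and 2 were lower with LIF, at 28476.7 and 308.0, against 90389.3 and 445.3 without. With LIF in the labelled Stat4-/- they gave −0.28, 0.40 and −0.27, of which the first was −1.24 and the second −0.23 with normexp at offset 50. The probe sequences were not used here, so binding of a probe to RNA of a neighbouring family member was not tested. The level of Ms4a4c is therefore uncertain.

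**Figure D2:**
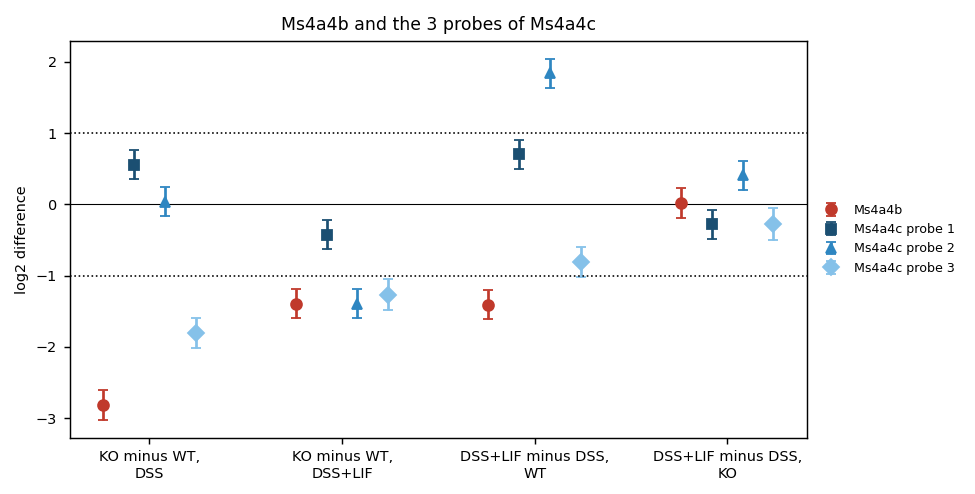
Log2 difference (y axis) of Ms4a4b and of the 3 probes of Ms4a4c in the 4 comparisons (x axis); error bars are the combined spot error of the scanner software and dotted lines mark 2-fold. Under DSS, Ms4a4b at −2.82 and probe 3 of Ms4a4c at −1.80 lie below −1, while probes 1 and 2 lie at 0.56 and 0.04.

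Ms4a6b, the other T cell member, was well above background on the wild type DSS array alone, at a log2 level of −1.92. Its signal there was 32.5 intensity units, against 3.8 in labelled Stat4-/- given DSS and LIF, 6.0 in labelled Stat4-/- given DSS and 1.9 in wild type given DSS and LIF, none of which was well above background. Because the dimmest level that passes the mark was −2.13 in labelled Stat4-/- given DSS, the array allows only that Ms4a6b was at least 1.16-fold lower there than in wild type given DSS. Ms4a4d was not well above background on any array, with signals of 1.8 to 2.3.

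None of the monocyte and macrophage members Ms4a6c, Ms4a6d and Ms4a7 passed 2-fold between genotypes in the main scaling. Ms4a6c had log2 levels of 1.44, 1.31, 2.38 and 1.08 in labelled Stat4-/- given DSS and LIF, labelled Stat4-/- given DSS, wild type given DSS and LIF and wild type given DSS, so that wild type given DSS and LIF was above the other 3. Between genotypes it differed by 0.23 ± 0.21 under DSS and −0.93 ± 0.21 under DSS and LIF, where normexp with no offset gave −1.31. It was 2.46-fold higher with LIF in wild type (1.30 ± 0.21), or 0.40 with normexp at offset 50 and 0.99 with normexp and no offset. Its signals before scaling ran the other way, at 123.4 in wild type with LIF and 259.0 without.

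Ms4a6d had log2 levels of 1.85, 1.68, 2.24 and 2.28 in the same order, with both wild type arrays above both labelled Stat4-/- arrays. Genotypes differed by −0.59 ± 0.21 under DSS and by −0.38 ± 0.21 with LIF added, below 2-fold in each case, but −1.05 under DSS and LIF with normexp and no offset. With LIF it was −0.04 in wild type and 0.17 in the labelled Stat4-/-, both within the spot error of 0.21 in the main scaling. Centring on the median over probes above background everywhere kept both within it (−0.18 and 0.17). In wild type it was −0.27 with quantile scaling and −0.26 in the authors' deposited table. With normexp at offset 50 and with none it was −0.81 and −0.38 in wild type and −0.39 and −0.77 in the labelled Stat4-/-. Ms4a7 had levels of −0.89, 0.09, −0.04 and 0.34, with labelled Stat4-/- given DSS and LIF below the other 3. Between genotypes it differed by −0.26 under DSS and by −0.86 under DSS and LIF (−1.02 in the authors' deposited table, −0.08 and −0.06 with normexp at offset 50 and with none). Its largest difference was that of LIF in the labelled Stat4-/-, −0.98 ± 0.25, which 3.32% of the 9783 measured genes fell below. That difference passed 2-fold with quantile scaling (−1.03) and in the authors' deposited table (−1.12), and ran as high as −0.22 among the alternatives.

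Markers of macrophages and monocytes did not share 1 direction with these 3 members. Of 10 measured markers 1 was at least 2-fold higher in the labelled Stat4-/- under DSS and 0 were lower, with a median of 0.22. Of all measured genes 13.2% were higher and 6.81% lower. Csf1r, the receptor that sustains macrophages, had a genotype difference of 0.04, and Adgre1, which encodes the macrophage protein F4/80, had −0.76. Of 8 such markers measured with LIF in wild type, 3 passed 2-fold upward and 0 downward, where 34.5% and 13.6% of all genes did. Their median was 0.66, close to the 0.57 of all genes. The 13 markers summed to 30.8, 28.3, 45.7 and 26.5 times the 75th percentile in labelled Stat4-/- given DSS and LIF, labelled Stat4-/- given DSS, wild type given DSS and LIF and wild type given DSS. Without Itgam, an integrin gene of myeloid cells that was highest in wild type given DSS and LIF, they summed to 28.5, 25.5, 28.2 and 25.3. Csf1r made up 60.77%, 52.96%, 24.39% and 54.75% of the full sum in the same order of arrays. With Csf1r left out instead, the sums were 12.07, 13.30, 34.54 and 12.01, highest in wild type given DSS and LIF. The reading of the sum therefore depends on the gene left out. C1qa and Mertk were not well above background on any array. The part of these cells in the Ms4a6c values was not tested.

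Ms4a8a, known from epithelium and some macrophages, had log2 levels of 1.48, 0.85, 1.16 and 1.92 in that order of arrays. It was 2.09-fold lower in the labelled Stat4-/- under DSS (−1.06 ± 0.21), close to the 2-fold mark, and was higher there under DSS and LIF by 0.32 ± 0.21, a sign that turned to −0.25 with normexp and no offset. With LIF it was −0.76 ± 0.21 in wild type, or −1.16 with normexp at offset 50, and 0.63 ± 0.21 in the labelled Stat4-/-, of which the second turned to −0.16 with normexp and no offset. Ms4a10 was well above background by its probe A_55_P2094445 in both wild type arrays, with a log2 difference of 2.28 ± 0.40 with LIF, or 1.11 with normexp at offset 50 and 1.496 as the mean of its probes. Its signals before scaling were 11.02 in wild type given DSS and LIF and 11.71 in wild type given DSS, so the difference arises on division by the 75th percentiles of the arrays, which were 23.8 and 122.9. The other probe of Ms4a10 was well above background on no array.

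Intestinal epithelial markers had a median of −0.57 between genotypes under DSS, with 4 of 13 at least 2-fold lower in the labelled Stat4-/- and 1 higher. Of all measured genes 6.81% were lower and 13.2% higher. Of 12 epithelial markers measured with LIF in wild type, 3 passed 2-fold upward and 3 downward, where 34.5% and 13.6% of all genes did. Their median was 0.51, against 0.57 over all genes. The 15 markers summed to 182.6, 203.7, 358.6 and 173.9 times the 75th percentile in labelled Stat4-/- given DSS and LIF, labelled Stat4-/- given DSS, wild type given DSS and LIF and wild type given DSS, and Lgals4, which encodes a galectin, dominated that sum. Without it they summed to 46.1, 43.6, 125.1 and 47.8. The third of these values rests largely on Tff3, at a log2 level of 6.17 in wild type given DSS and LIF, against 2.98 in wild type given DSS. Epcam, Krt8 and Krt19 were the 3 lower with LIF in wild type, and Tff3, Krt20 and Slc26a3 the 3 higher. Alpi and Apoa1, genes of small intestinal enterocytes, were not well above background on any array. The part of epithelial cells in the values of Ms4a8a and Ms4a10 was not tested.

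**Figure D3:**
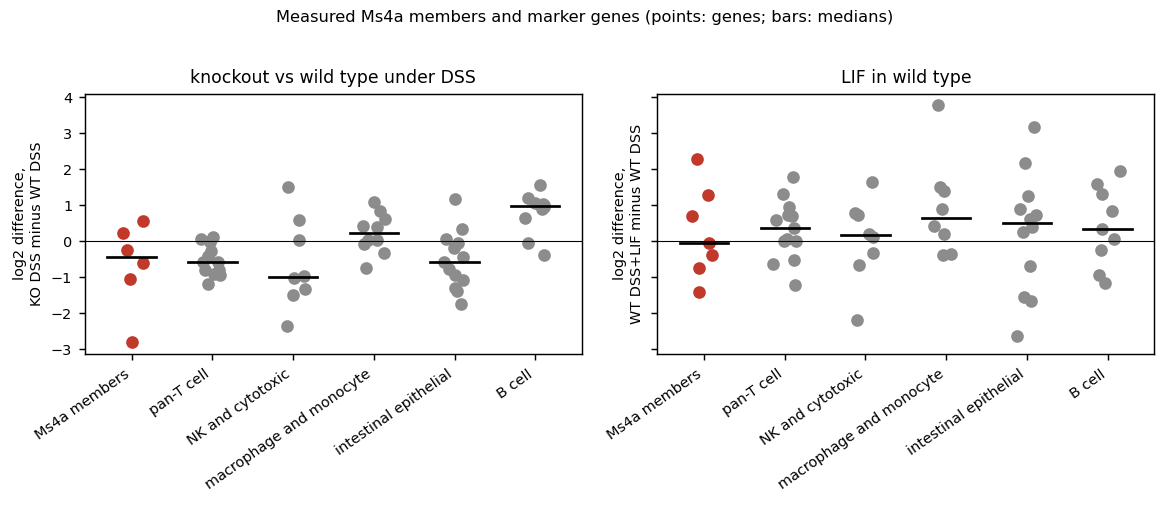
Log2 difference (y axis) of the measured Ms4a members (red) and of marker genes (grey) for labelled Stat4-/- minus wild type under DSS (left) and for DSS and LIF minus DSS in wild type (right); bars are medians. On the left Ms4a4b lies at −2.82, below the lowest NK and cytotoxic gene, Klrd1, at −2.35.

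Counted over members by the brightest probe, 2 of 6 measured were at least 2-fold lower in the labelled Stat4-/- under DSS (Ms4a4b and Ms4a8a) and 0 were higher, where 6.81% of all measured genes were lower and 13.2% higher. With normexp at offset 50 these background shares were 7.64% lower and 3.13% higher. The median over the 6 members was −0.43, against 0.08 over all 10500 genes. Ms4a4c entered by probe 1, at 0.56, whereas its probes 2 and 3 had 0.04 and −1.80. The count and the median therefore depend on the probe chosen. Under DSS and LIF 1 of 6 was lower in the labelled Stat4-/-, Ms4a4b, and 0 were higher, where 31.3% of all genes were lower and 14.1% were higher (34.1% and 5.43% with normexp and no offset), and the medians were −0.64 over members and −0.45 over all genes. Ms4a4c entered there at −0.43 by probe 1, whereas its probes 2 and 3 had −1.39 and −1.27, past the 2-fold mark.

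With LIF in wild type 2 of 7 measured members were at least 2-fold higher (Ms4a6c and Ms4a10) and 1 was lower (Ms4a4b), where 34.5% of genes were higher and 13.6% lower. With normexp at offset 50 these shares were 8.88% and 17.01%. Ms4a4c entered this count at 0.70 by probe 1, whereas its probes 2 and 3 had 1.84 and −0.81. Before scaling, the wild type signals of Ms4a6c and Ms4a10 were both lower with LIF than without. The median was −0.04 over members and 0.57 over all genes, and the median over all genes was 0.07 with normexp at offset 50. In that setting the members ran from −2.37 in Ms4a4b to 1.11 in Ms4a10, with Ms4a4c in the middle at −0.53. With LIF in the labelled Stat4-/- 0 of 6 members were past 2-fold in either direction, where 3.21% of all genes were higher past that mark and 3.08% lower (0.0511% and 8.87% with normexp at offset 50), and the members ran from −0.98 in Ms4a7 to 0.63 in Ms4a8a. Over the 8045 genes on all 4 arrays the LIF difference of the labelled Stat4-/- exceeded that of wild type by 1 or more in 16.7% and fell short of it by 1 or more in 33.4%. That excess was 1.42 in Ms4a4b and 1.39 in Ms4a8a, and −1.16 in Ms4a6c. Markers of other cells and tissue moved in the comparisons that use the LIF arrays and in that under DSS alone, and their part in the members' values was not tested. Pancreatic acinar markers had a median of 3.31 between genotypes under DSS and LIF, with 5 of 6 higher in the labelled Stat4-/-, and 1.69 with LIF in the labelled Stat4-/-, with 6 of 7 higher. Neutrophil markers had a median of 2.13 between genotypes under DSS and LIF, with 5 of 6 higher, beside 2.74 under DSS, with 6 of 8 higher. Stromal markers had one of 1.93 under DSS, with 4 of 7 higher.

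**Figure D4:**
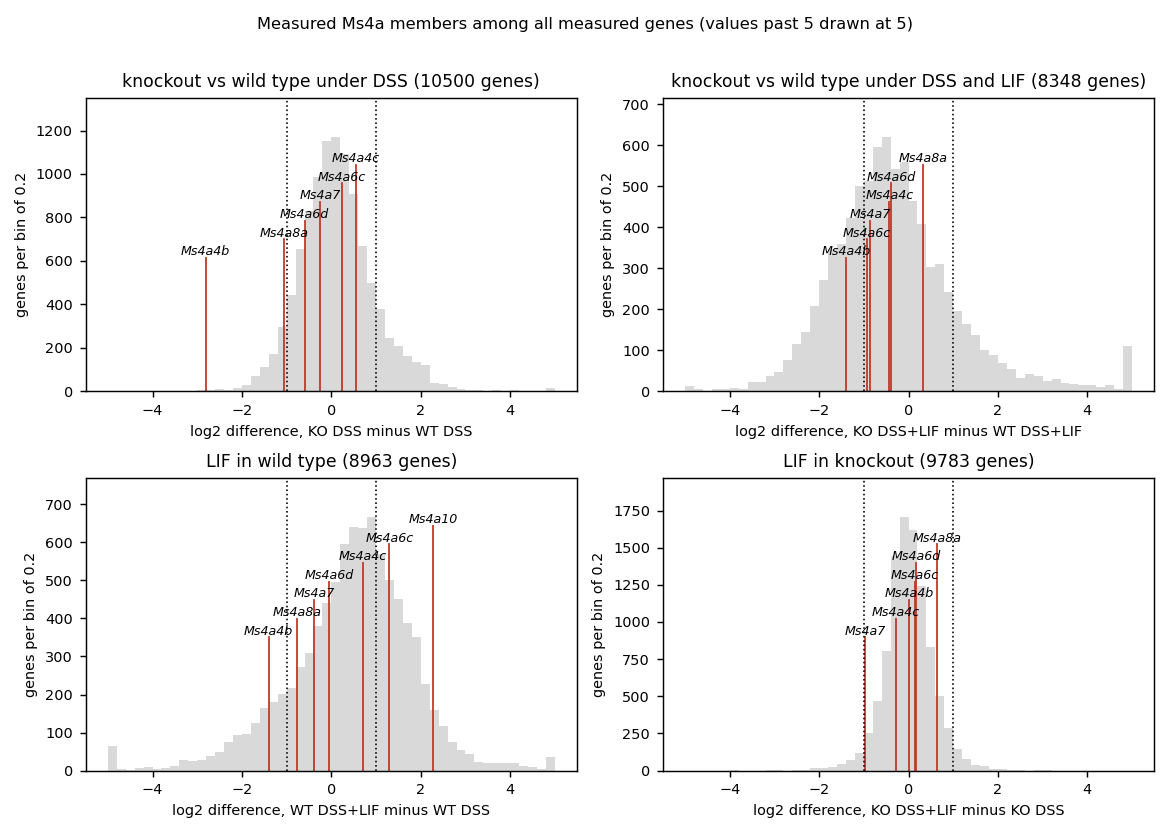
Histograms of the log2 difference (x axis) over all measured genes (y axis, genes per bin) in the 4 comparisons, with the measured Ms4a members as red lines of arbitrary height; dotted lines mark 2-fold. Ms4a4b lies in the far lower tail under DSS (top left, −2.82), and in the labelled Stat4-/- with LIF (bottom right) every measured member lies between −0.98 and 0.63.

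The remaining family genes were mostly dim. Of 12 listed relatives 9 had a probe with a name, with none for Ms4a4a, Ms4a12 and Ms4a14, and 3 to 5 of these were well above background per array. Ms4a1, which encodes CD20, had log2 levels of 1.66, 2.31, 1.33 and 1.99 in labelled Stat4-/- given DSS and LIF, labelled Stat4-/- given DSS, wild type given DSS and LIF and wild type given DSS. Between genotypes it differed by 0.33 ± 0.20 under DSS and by 0.33 ± 0.21 with LIF added, the opposite sign of Ms4a4b. Tmem176b, a related membrane protein gene, had levels of 2.82, 3.08, 4.08 and 3.23 by its brighter probe. Ms4a2, the beta subunit of the mast cell IgE receptor, was well above background in wild type given DSS alone, Ms4a13 in labelled Stat4-/- given DSS alone, Tmem176a in labelled Stat4-/- given DSS and LIF and in wild type given DSS, and Ms4a3, Ms4a15 and Ms4a18 were so on no array. Between genotypes 0 of 2 measured relatives passed 2-fold under DSS, where 6.81% of all genes were lower and 13.2% higher. Under DSS and LIF 1 of 2 did, Tmem176b with −1.26, where 31.3% of all genes were lower and 14.1% higher. With LIF in wild type 1 of 3 did, Ms4a5 with 1.79, where 34.5% of all genes were higher and 13.6% lower. The signals of Ms4a5 before scaling ran the other way, at 11.6 with LIF and 17.3 without. With LIF in the labelled Stat4-/- 0 of 2 relatives passed 2-fold, where 3.21% of all genes were higher and 3.08% lower. Of 4 partner genes known from other work 3 had a probe, with none for Clec7a. Fcer1g, the shared gamma chain of the IgE and other Fc receptors, had a genotype difference of 0.63 under DSS, where 0 of 2 measured partners passed 2-fold. Under DSS and LIF 2 of 3 were lower in the labelled Stat4-/-, Fcer1g with −1.10 and Fcer1a, the IgE-binding chain, with −1.11, where 31.3% of all genes were lower. Both were higher with LIF in wild type, by 1.60 and 1.22, where 34.5% of all genes were, and 0 of 2 passed with LIF in the labelled Stat4-/-. Before scaling, the wild type signals of Fcer1g and Fcer1a were lower with LIF, at 1787.0 and 15.8, against 3047.6 and 35.1 without.

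The genes most like each member were sought among 7733 genes on all 4 arrays, by the largest absolute difference on any of the 4 arrays after each gene was centred on its own mean. For Ms4a4b the nearest were Srsf3 (0.43), Il21 (0.46) and Cd53 (0.46), and no gene lay within 0.25 of it on every array. For the other members 16 to 499 genes lay within 0.25. Ms4a4c entered by probe 1 alone, and the differing patterns of its probes 2 and 3 were not searched. The nearest to Ms4a4c were Sp110 (0.02), Dhps (0.02) and Tnks2 (0.03), and to Ms4a6c Amer1 (0.01), Nxpe5 (0.01) and Ube2v1 (0.04). To Ms4a6d they were Ier3ip1 (0.04), Vps16 (0.06) and Cib1 (0.07), to Ms4a7 Atp8b2 (0.10), Trp53inp1 (0.11) and Tmem29 (0.14), and to Ms4a8a Rock1 (0.04), Ankrd26 (0.09) and Elf3 (0.09). Among the members themselves, Ms4a6d and Ms4a8a were the nearest pair, with 0.42, and Ms4a4b and Ms4a6c the farthest, with 2.23. These values describe 4 arrays, which cannot separate likeness from coincidence.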

How the data were processed

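The authors' deposited scanner files hold spot intensity values from Agilent Feature Extraction, with 11.0.1.1 as its version per the file headers, while the submitters' processing notes give 9.1. The processed signal is background-subtracted, per the file headers. The authors' deposited table of normalized log2 values was used as an alternative. Its column medians were 3.31, 3.31, 2.54 and 3.31 for labelled Stat4-/- given DSS and LIF, labelled Stat4-/- given DSS, wild type given DSS and LIF and wild type given DSS, and it correlated at 0.971 to 0.992 with log2 processed signals, so higher means brighter. Its normalization, centring and floor are not given in the sources used here.

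From the scanner files, spots with outlier flags were left out, log2 signals of a probe's spots were averaged, and the 75th percentile of each array was subtracted. A probe needed the software's mark on 50% or more of its spots to be well above background. No non-control spot was saturated. Probes were named by RefSeq accession (69.1% of 39429), and for a gene with several probes the one with the highest mean level stood for it. A gene below background on 1 array received a bound against the lowest level that passes there. Alternatives were normexp (offset 50 and none, on median signals, limma 3.58.1), quantile scaling, centring on the median over probes that were above background everywhere, the authors' table, no background filter, genes on all 4 arrays alone, the mean over probes, and no spot left out. The counting was tested on simulated data. No test was made, since each group has 1 array. The median SD of a log2 difference over at least 5 replicate spots of a probe was 0.099 to 0.103, and the number of arrays limits the precision. The text names all members, listed relatives and partners, and the 3 genes nearest by pattern to each member measured on all 4 arrays; marker genes named with values were chosen after their values were seen, as were the genes left out of sums; members and lists were chosen with earlier results of these data known. Dendritic, plasma, neutrophil, mast cell and eosinophil, stromal and pancreatic marker lists had medians of 0.65, −0.28, 2.74, −0.96, 1.93 and 0.52 for labelled Stat4-/- minus wild type under DSS, and B cell markers one of 0.99.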

Additional observations from a re-analysis of the deposited data

Results flagged for a closer look

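In the main scaling some effects had opposite signs in the 2 genotypes or under the 2 treatments, with 1 array per group, and none of these differences was tested. The LIF difference of Ms4a4b was 0.02 in the labelled Stat4-/- and −1.41 in wild type, which differ by 1.42, and that of Ms4a8a was 0.63 and −0.76, which differ by 1.39. For Ms4a6d the LIF differences were 0.17 and −0.04, apart by 0.21, where each alone had a spot error of 0.21. The error of a difference between 2 such differences rests on all 4 arrays, is larger than that of either and was not computed. For probe 1 of Ms4a4c the LIF differences were −0.28 and 0.70, with a difference of −0.98. Their signs were the same with quantile scaling (0.05 and 0.59) and in the authors' deposited table (0.05 and 0.53). They were also the same with normexp at offset 50 (−1.24 and −0.53). Between genotypes, labelled Stat4-/- minus wild type, Ms4a8a differed by 0.32 under DSS and LIF and by −1.06 under DSS, again apart by 1.39. The genotype difference of Ms4a6c was −0.93 under DSS and LIF and 0.23 under DSS, apart by −1.16, and that of probe 1 of Ms4a4c was −0.43 and 0.56, apart by −0.98. For probe 1 both were below 0 with quantile scaling (−0.61 and −0.07) and in the authors' deposited table (−0.56 and −0.07). Both were below 0 as well with normexp at offset 50 (−0.82 and −0.11) and in the mean of probes (−1.03 and −0.40). For probe 2 of Ms4a4c the genotype difference was −1.39 and 0.04, apart by −1.43. Each of these rests in part on the wild type array given DSS and LIF, which stood apart from the rest. With normexp and no offset several signs turned: with LIF in the labelled Stat4-/-, Ms4a4b was −0.95, Ms4a6d −0.77 and Ms4a8a −0.16, the same sign as in wild type (−1.84, −0.38 and −1.05), and between genotypes Ms4a8a was −0.25 under DSS and LIF and probe 2 of Ms4a4c −0.09 under DSS. The median of this difference of differences over all 8045 genes was −0.53. With normexp at offset 50 the LIF difference in the labelled Stat4-/- was also below 0 for Ms4a4b (−0.53) and Ms4a6d (−0.39). The genotype difference of probe 2 of Ms4a4c under DSS was −0.35 in that setting.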

How the results depend on the processing

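No paired analysis was possible because each group has 1 array. Of 268 differences of member probes recomputed under the alternatives, 211 moved by no more than the spot error, 57 moved further, and 0 of those past 2-fold changed sign. The 211 include all those under no background filter, genes on all 4 arrays alone and no spot left out. These settings cannot change the difference of a probe with 1 spot, so their part of the 211 was fixed in advance. Ms4a4b stayed at least 2-fold lower in the labelled Stat4-/- under DSS (−2.98 to −2.77), under DSS and LIF (−1.95 to −1.14) and with LIF in wild type (−2.37 to −1.41) under all 8 alternatives that apply to it, those fixed ones included. Ms4a8a kept 2-fold under DSS (−1.16 to −1.06). Of 72 member counts 15 changed by over 1.5 times. Members at least 2-fold lower in the labelled Stat4-/- under DSS and LIF, 1 in the main setting, were 4 with normexp and no offset, 2 with the authors' deposited table, 2 with no background filter and 2 with the mean of all probes. Members higher with LIF in wild type, 2 in the main setting, were 1 with normexp at either offset and 1 over genes on all 4 arrays, which leave out Ms4a10. Members lower in that comparison, 1 in the main setting, were 2 with normexp at either offset and 2 with no background filter. With LIF in the labelled Stat4-/-, 0 members were lower in the main setting and 1 with normexp at either offset, with quantile scaling and with the authors' deposited table. With no background filter 1 member was higher in the labelled Stat4-/- under DSS, against 0 in the main setting. The cause of these changes was not tested, except that the filters set which genes enter. The median of all genes with LIF in wild type was 0.43 with scaling to probes well above background on all 4 arrays. Over all genes, higher and lower counts for LIF in the labelled Stat4-/- were 314 and 301, or 5 and 868 with normexp at offset 50, 433 and 2364 with no offset and 2469 and 1163 with no background filter. Between genotypes under DSS and LIF they were 1180 and 2613, or 453 and 2843 with normexp and no offset and 3485 and 4410 with no filter. Genes past 2-fold under DSS numbered 1387 higher and 715 lower, or 329 and 802 with normexp at offset 50. With LIF in wild type they numbered 3093 and 1216, or 796 and 1525. Dim probes limit Ms4a4d, Ms4a6b and Ms4a10.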
